A study of Mus musculus with 6 samples.

Results

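The genes described here encode glucosidase II and the calnexin cycle, the quality control of newly made glycoproteins in the endoplasmic reticulum (ER). They are 10 of the 16665 genes in a table of expression levels from RAW264.7 cells, a mouse macrophage-like leukaemia line. Prkcsh, Ganab, Mogs, Uggt1, Canx, Calr, Pdia3, Edem1, Man1b1 and Os9 were matched by Ensembl identifier, and each had 1 row. The set was put together because Prkcsh separated the study's groups, so all differences between the groups are given as a description, with no test of the genes as a set.

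Both groups were transfected. The mimic group (3 libraries, labelled as overexpressing miR-125b) received a miR-125b mimic, a synthetic copy of the microRNA. The control group (3 libraries, NC in the labels, genotype miR-125b WT) is its counterpart. The labels give no dose, no time after transfection and no arm of miR-125b for the mimic. Separate cultures are not named in the labels, and the spread between libraries may therefore be technical. All cells are of 1 line.

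Depth, recovered from the steps of the lowest values, was 1.45e+07 to 1.68e+07 fragments per library. In control 3, at 1.47e+07 fragments, 13266 genes lay above 0, against 15141 to 15470 in the other libraries. Controls 1 and 2 were nearly alike, with a chi-square of 4.64 per gene on recovered fragments, as were mimics 1 and 2 at 6.72. Mimic 3 stood off from its pair, at 25.2 from mimic 1 and 28.6 from mimic 2. Control 3 stood further apart, at 96.3 from control 1 and 97.5 from control 2, and lay nearer to mimic 3 at 31.0. In 65.7% of the 10166 genes tested its value was closer to the mimic mean than to the mean of controls 1 and 2. All 8 macrophage markers were present, with a summed level of 7007 to 8461 FPKM in controls and 6261 to 6506 with the mimic, mostly from the lysozyme gene Lyz2. The other 7 summed to 491 to 656 and 484 to 540 FPKM. Of 12 markers of T cells, B cells, fibroblasts and epithelium 3 were listed, Cd4, Cd79a and Col1a1, and together they did not exceed 0.561 FPKM in any library. Whether the marker levels had a part in the differences below was not tested.

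A protein that enters the ER is often given a branched sugar that ends in glucose residues. Glucosidase I removes the outermost glucose, and glucosidase II, a dimer of a catalytic alpha and a regulatory beta subunit, removes the others. Calnexin and calreticulin bind the form that still carries 1 glucose and bring in the oxidoreductase ERp57, which forms disulphide bonds. If the protein stays misfolded, UGGT1 puts glucose back and the cycle repeats, until mannosidases trim the sugar and the lectin OS9 hands the protein over for degradation. Macrophages make many glycoproteins that pass through this cycle, among them lysosomal enzymes and surface receptors.

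The promoters of the glucosidase II genes and of the lectin chaperones are shown because they differ in a known control element. The ER stress response element, which reads CCAAT, then 9 bases of any kind, then CCACG, is bound by ATF6 in the unfolded protein response. Windows from 250 bases before to 50 after the RefSeq start (build GRCm38.p6) were searched on both strands, and all 10 genes had 1. The 250 bases before the start are printed 5′ to 3′ along the gene. Capitals mark the element in Calr, where it lies on the opposite strand, and in Canx. In Ganab they mark the CCAAT boxes, the part of the element that also occurs alone, and the Prkcsh window has neither. RefSeq and GENCODE starts can differ: of the 250 bases, 182 in Prkcsh, 3 in Calr and 0 in Ganab and Canx lie inside the gene as GENCODE M21 annotates it, so that 68 of those printed for Prkcsh lie before it.
Prkcsh, chr9:22002738-22002987, plus strand: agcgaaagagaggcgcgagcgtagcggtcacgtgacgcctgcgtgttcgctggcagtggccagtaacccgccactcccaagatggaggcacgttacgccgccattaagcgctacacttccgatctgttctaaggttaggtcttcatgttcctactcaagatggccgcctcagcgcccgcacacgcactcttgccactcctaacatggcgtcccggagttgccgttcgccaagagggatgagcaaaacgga
Ganab, chr19:8897807-8898056, plus strand: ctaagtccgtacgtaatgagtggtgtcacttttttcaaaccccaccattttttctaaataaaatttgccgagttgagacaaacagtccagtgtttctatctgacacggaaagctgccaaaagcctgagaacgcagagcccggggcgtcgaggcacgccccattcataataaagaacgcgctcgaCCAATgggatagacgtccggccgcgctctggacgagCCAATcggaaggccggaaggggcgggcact
Calr, chr8:84846932-84847181, minus strand: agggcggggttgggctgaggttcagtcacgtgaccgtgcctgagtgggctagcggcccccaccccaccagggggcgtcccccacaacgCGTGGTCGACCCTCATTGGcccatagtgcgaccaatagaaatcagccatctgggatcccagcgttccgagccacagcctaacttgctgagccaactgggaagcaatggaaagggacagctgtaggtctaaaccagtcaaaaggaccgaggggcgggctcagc
Canx, chr11:50325674-50325923, minus strand: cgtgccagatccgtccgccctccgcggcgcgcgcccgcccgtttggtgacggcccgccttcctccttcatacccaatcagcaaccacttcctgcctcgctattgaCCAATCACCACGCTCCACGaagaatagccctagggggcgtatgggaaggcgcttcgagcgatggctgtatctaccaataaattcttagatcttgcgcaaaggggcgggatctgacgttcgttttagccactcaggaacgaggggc

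The element was in 2 of the 10 windows, those of Calr and Canx, and in 0.119% of all 32851 windows of that length. The related elements ERSE-II (ATTGG, 1 base of any kind, then CCACG) and UPRE (tgacgtgg) were in none of the 10 windows and in 0.0365% and 0.676% of all windows. A CCAAT box, which each copy of the ER stress response element also holds, was in 37.4% of all windows. It was absent from 4 of the 10, those of Prkcsh, Mogs, Uggt1 and Man1b1. In Uggt1 and Man1b1 all 250 bases, and in Mogs 10, lie inside the GENCODE gene, so for Prkcsh, Uggt1 and Man1b1 the bases before the GENCODE start were searched in small part or not at all. Of 61 genes in the pathway lists below that had a window, 6 held the element: Hspa5, Hsp90b1, Pdia6, Dnajc3, Syvn1 and Alg12. The 8 genes with the element did not share a direction. Their differences, mimic minus control on the log2(FPKM + 1) scale, ran from −0.31 (SE 0.17) for Pdia6 to 0.30 (SE 0.11) for the kinase inhibitor Dnajc3, with Canx at 0.10 (SE 0.10) and Calr at −0.21 (SE 0.19). A match is a description of the letters, not a site in use.

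The mature miR-125b-5p is shown because its seed, bases 2 to 8 in capitals, sets the sites that could pair with it.
miR-125b-5p: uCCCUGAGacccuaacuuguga
Sites CTCAGGGA, CTCAGGG and TCAGGGA were searched on the sense strand, in 1 annotated 3′ UTR per gene, the longest (GENCODE M21, GRCm38). Of the 10 genes 3 held a site (30%), against 23.9% of 9338 tested genes with a 3′ UTR. Prkcsh, whose 3′ UTR has 315 bases, held none. Capitals mark the site in each line.
Man1b1, chr2:25351070-25351077, plus strand: tacgggttggaCTCAGGGAtcctcctggct
Uggt1, chr1:36150098-36150104, minus strand: ctggagacagaCTCAGGGgacagtaccaa
Edem1, chr6:108857655-108857661, plus strand: taccagtgggtCTCAGGGgtacaggcaga
Edem1, chr6:108858890-108858896, plus strand: actcagcggggCTCAGGGttaaggtccct
Edem1, chr6:108856448-108856454, plus strand: caattagctaaTCAGGGAcaaagaagtga
Man1b1 had the lower estimate of these genes and Edem1 and Uggt1 had higher ones, as given below.

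Levels differed widely between the 10 genes. In FPKM, a level per kilobase of all annotated exons of a gene, the mean over the 6 libraries was 263 for Calr, 222 for Canx, 186 for Pdia3 and 102 for Edem1. It was 39.9 for Ganab, 23.5 for Prkcsh, 13.9 for Uggt1, 11.8 for Mogs, 11.4 for Os9 and 8.96 for Man1b1. The chaperones that hold the glycoprotein were thus at higher levels than the enzymes that release it and mark it again. The libraries of Calr and Canx overlapped, and so did those of Uggt1, Mogs, Os9 and Man1b1. On this scale every other pair of neighbours in this order was separated in all 6 libraries. Which pairs overlap depends on the length used. Per longest coding transcript Prkcsh lay above Ganab in control 3 (55.8 against 52.6). Pdia3 in mimic 3 (228) lay above Canx in control 2 (225), while Calr (279 to 420) and Canx (225 to 257) did not overlap.

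Prkcsh, the beta subunit of glucosidase II that holds the enzyme in the ER, had the largest difference of the 10 as deposited. Without control 3 that of Os9 was larger (−0.72 against −0.62). Prkcsh (ENSMUSG00000003402) spans bases 22002806 to 22014222 of GRCm38 chromosome 9, plus strand. It read 29.1, 28.2 and 29.1 FPKM in controls 1, 2 and 3, and 17.3, 17.4 and 20.1 FPKM in mimics 1, 2 and 3. The groups did not overlap, and control 3 stood with the other controls. The means were 28.8 ± 0.495 and 18.3 ± 1.62 FPKM (SD, n = 3), so the mimic libraries held 63.4% of the control level, a log2 difference of −0.63 (SE 0.11). These values chose the gene. Between 1832 and 2024 recovered fragments lay behind each control value and between 1071 and 1330 behind each mimic value.

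In limma 0 of the 10166 genes passed an adjusted p of 0.05 (0%), and so none of the 10 genes here did. With voom weights on the recovered fragments the number was 0 as well. Before adjustment 1344 genes in limma and 1394 with voom had a p under 0.05. In 3 of the 10 genes the groups did not overlap, against 20.1% of all genes tested: every mimic value was below every control value in Prkcsh and Os9 (7.49% of all genes) and above in Edem1 (12.6%). Since Prkcsh was picked on this contrast, nothing is read from the count. The estimate was lower in 7 genes and higher in 3, where 43.7% of all genes tested were lower. With libraries scaled to the same sum or quantile normalised, 5 were lower, and the median over all genes was 0.13 and 0.011. As deposited, the median of the 10 was −0.15, beside 0.041 over all genes tested. It was −0.095 over the 9 genes other than Prkcsh, and −0.23 over the 10 without control 3, where that of all genes was −0.0064.

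**Figure D1:**
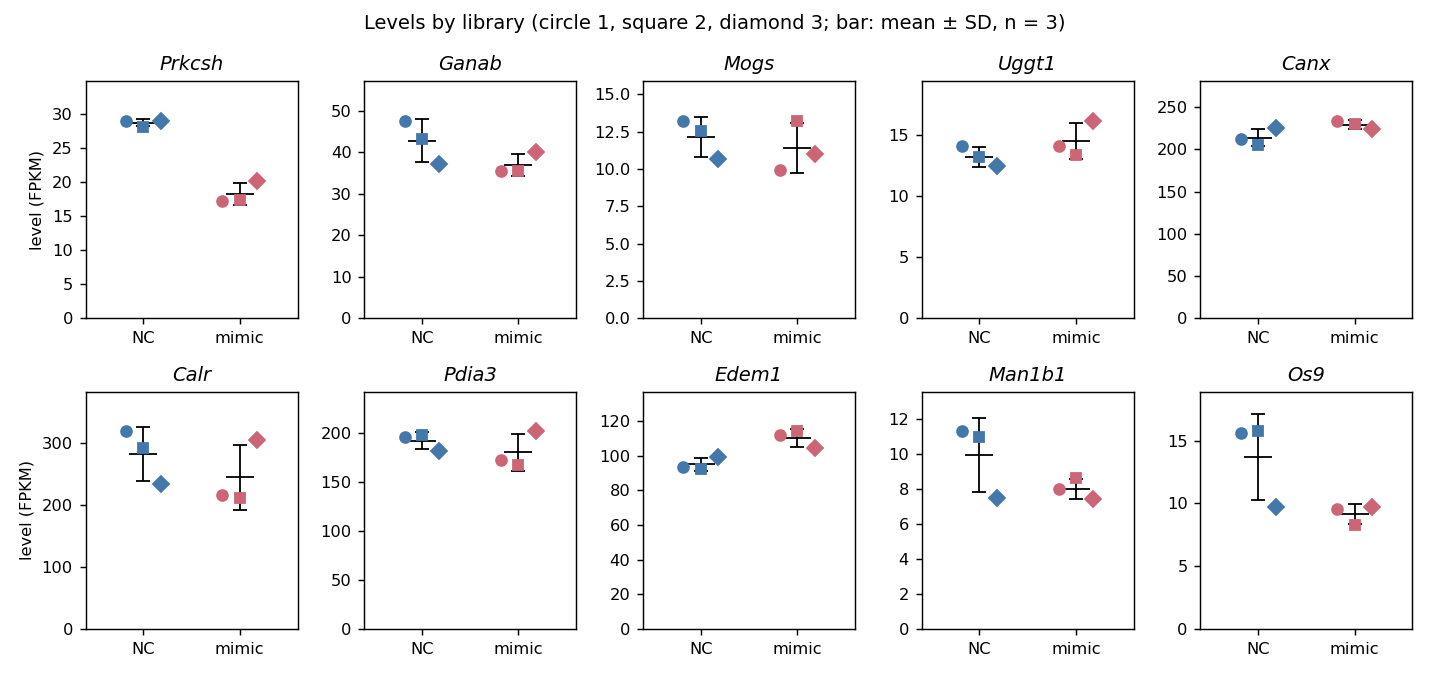
Level in FPKM (vertical axes, from 0) of each of the 10 genes in the 3 control (NC, blue) and 3 mimic (red) libraries, with symbols for libraries 1 to 3 and bars for mean ± SD. Prkcsh reads 28.2 to 29.1 in controls and 17.3 to 20.1 with the mimic, while in Os9 control 3 sits at 9.72 beside the mimics.

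Ganab, the catalytic alpha subunit that pairs with Prkcsh, had a smaller difference. It lies on chromosome 19, bases 8898071 to 8916672, plus strand. Its level was 47.6, 43.3 and 37.3 FPKM in the controls and 35.4, 35.5 and 40.1 in the mimics. The groups overlapped, because mimic 3 read above control 3. The means were 42.7 ± 5.19 and 37.0 ± 2.66 FPKM (SD, n = 3; log2 difference −0.20, SE 0.13).

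The ratio of Prkcsh to Ganab within a library compares the genes of 1 enzyme and is not changed by a factor that scales the whole library. It was 0.610, 0.652 and 0.781 in controls 1 to 3 and 0.487, 0.490 and 0.502 in the mimics. All controls lay above all mimics, and the mimics were close together (0.493 ± 0.00797) while the controls were not (0.681 ± 0.0887; SD, n = 3). The log2 difference of the ratio was −0.46, of which −0.31 was left after the trend on length and GC content was removed, and −0.15 when control 3 was left out as well. The size of the ratio depends on the length used. All annotated exons of Prkcsh come to 4275 bases, 1.92 times its longest coding transcript, and those of Ganab to 5454 bases, 1.41 times. Per longest coding transcript the ratio was 0.925 ± 0.121 in controls and 0.670 ± 0.0108 with the mimic.

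**Figure D2:**
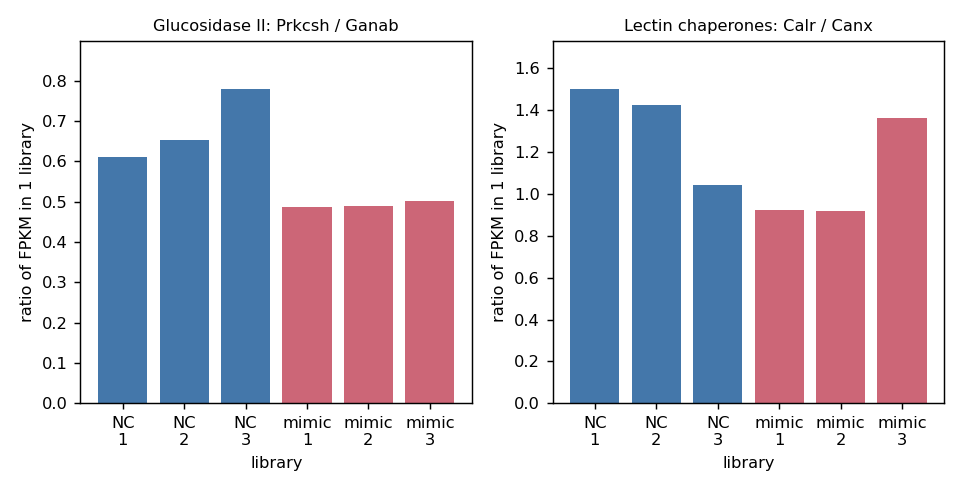
Ratio of FPKM within each library (vertical axes, from 0) for Prkcsh over Ganab (left) and Calr over Canx (right), with controls (NC) in blue and mimics in red. The left ratio is 0.610 to 0.781 in controls and 0.487 to 0.502 in mimics; the right one is high in controls 1 and 2 and in mimic 3.

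Mogs, which is glucosidase I and acts just before glucosidase II, showed no separation. It read 13.2, 12.5 and 10.7 FPKM in the controls and 9.96, 13.2 and 10.99 in the mimics. Control 1 and mimic 2 were equal at this precision. The log2 difference was −0.09 (SE 0.14), turning to 0.13 with the length and GC trend removed. Mogs has the highest GC content of the 10, at 59.9%.

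Uggt1, the folding sensor that puts glucose back, leaned the other way. Its values were 14.1, 13.2 and 12.5 FPKM in the controls and 14.1, 13.4 and 16.2 in the mimics. Mimic 3 was the highest, and mimic 1 equalled control 1 at this precision. The log2 difference of 0.12 (SE 0.12) became −0.03 with the trend removed.

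Canx, the membrane-bound lectin chaperone calnexin, read 212, 205 and 225 FPKM in the controls and 234, 230.0 and 224 in the mimics. Mimic 3 lay just below control 3, so the groups overlapped. The log2 difference was 0.10 (SE 0.10), and −0.08 with the trend removed.

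Calr, its soluble relative calreticulin, varied more within each group than between them. It read 319, 292 and 234 FPKM in the controls and 217, 212 and 305 in the mimics. Controls 1 and 2 and mimic 3 were high, and control 3 and mimics 1 and 2 were low, a split that crosses the labels. The means were 282 ± 43.2 and 245 ± 52.4 FPKM (SD, n = 3; log2 difference −0.21, SE 0.19). Pdia3, the gene of ERp57, had the same high and low libraries at 196, 198 and 182 FPKM in the controls and 172, 167 and 202 in the mimics (log2 difference −0.09, SE 0.12). Ganab also had its 3 highest values in controls 1 and 2 and mimic 3.

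The ratio of Calr to Canx followed that split. It was 1.503, 1.43 and 1.04 in the controls and 0.926, 0.921 and 1.36 in the mimics. In 4 of 6 libraries the soluble lectin was thus at a higher level per kilobase of all annotated exons than the membrane-bound one. That count depends on the length used. Per longest coding transcript Calr read 279 to 420 and Canx 225 to 257, so that Calr was higher in all 6.

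**Figure D3:**
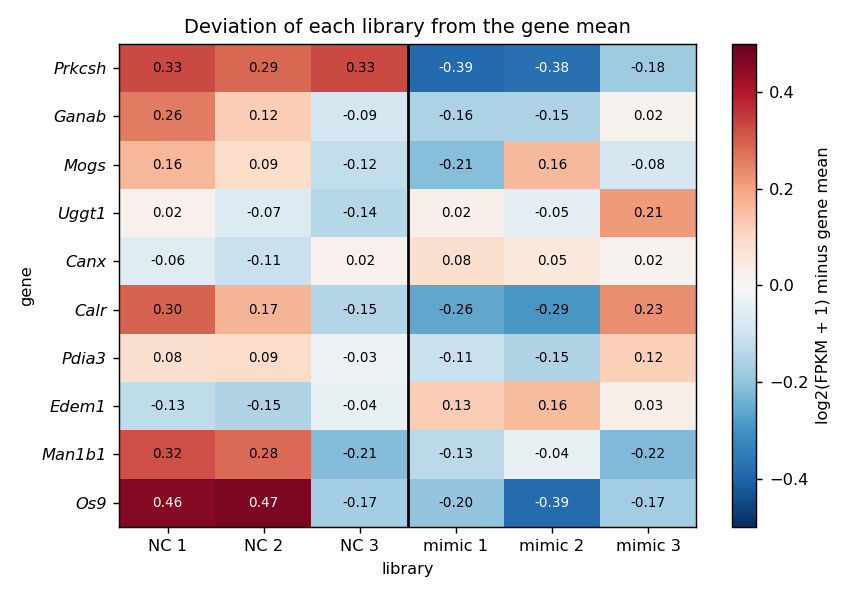
Heat map of log2(FPKM + 1) minus the gene's mean over 6 libraries (colour and printed value), genes in rows and libraries in columns, controls (NC) left of the line. Prkcsh is above its mean in all 3 controls, whereas Os9 and Man1b1 are above only in controls 1 and 2, and Calr in controls 1 and 2 and mimic 3.

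Genes of the exit to degradation did not share a direction. Os9, the lectin that delivers trimmed glycoproteins to the degradation machinery, lies on chromosome 10, bases 127095650 to 127121131, minus strand. It read 15.6, 15.7 and 9.72 FPKM in the controls and 9.53, 8.25 and 9.72 in the mimics. The groups did not overlap as deposited, yet control 3 (9.7241) and mimic 3 (9.7163) were equal to 3 digits. The means were 13.7 ± 3.43 and 9.17 ± 0.800 FPKM (SD, n = 3; log2 difference −0.50, SE 0.19). The spread of the controls in this gene came from control 3.

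Man1b1, a mannosidase whose trimming marks glycoproteins for disposal, had a like pattern at a lower level. It read 11.3, 10.99 and 7.48 FPKM in the controls and 7.97, 8.60 and 7.44 in the mimics (log2 difference −0.26, SE 0.17). Control 3 lay among the mimics. Of its exon bases 4.34% overlap AA543186, a long noncoding gene on the other strand that has no row here, and their reads could not be told apart without strand.

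Edem1, a mannosidase-like factor that takes glycoproteins out of the cycle, was higher with the mimic in all libraries. It read 93.3, 92.0 and 99.4 FPKM in the controls and 112, 114 and 104 in the mimics. The groups did not overlap, and the gap between control 3 and mimic 3 was small beside that between the other libraries. The means were 94.9 ± 3.96 and 109.9 ± 5.16 FPKM (SD, n = 3; log2 difference 0.21, SE 0.10), and 0.07 of the difference was left with the trend removed. Edem1 lies on chromosome 6, bases 108828641 to 108859356, plus strand, and its 3′ UTR holds the 3 sites printed above.

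Control 3 lay nearer to the mimics than to the other controls in 7 of the 10 genes, beside 65.7% of all genes tested. The exceptions were Prkcsh, Uggt1 and Edem1. Without control 3, limma called 2412 genes (23.7%), and 3 of the 10 were among them: Prkcsh (−0.62), Os9 (−0.72) and Man1b1 (−0.43). Prkcsh was picked on this contrast, so nothing is read from its call. Of the other 9 genes 2 were called, beside the 23.7% of all genes. After removal of the trend on length and GC as well limma called 389 genes (3.84%) and 0 of the 10 (Prkcsh −0.32, Os9 −0.37, Man1b1 −0.25). With array weights, which weight libraries by their spread, 4808 genes (47.3%) were called. Control 3 had the lowest weight and mimic 3 the next lowest. Of the 10 genes 8 were called, all but Mogs and Uggt1, and 7 of the 9 other than Prkcsh.

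Exon length and GC content moved with the difference across the whole table. Spearman's rho over 10128 genes, which are not independent replicates, was 0.38 with length and −0.55 with GC. Over the 10 genes it was 0.56 and −0.66. Prkcsh has a GC content of 57.4% and Os9 of 56.6%, against a median of 49.0% over the tested genes, while Edem1 has 46.2% and Canx 42.2%. With each library's trend on both properties removed, Prkcsh stood at −0.49, Os9 at −0.31, Man1b1 and Ganab at −0.20, Calr at −0.16 and Pdia3 at −0.12. The median of the 10 was then −0.14, beside 0.00073 over all genes. The part of length and GC in these differences was not tested beyond this.

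**Figure D4:**
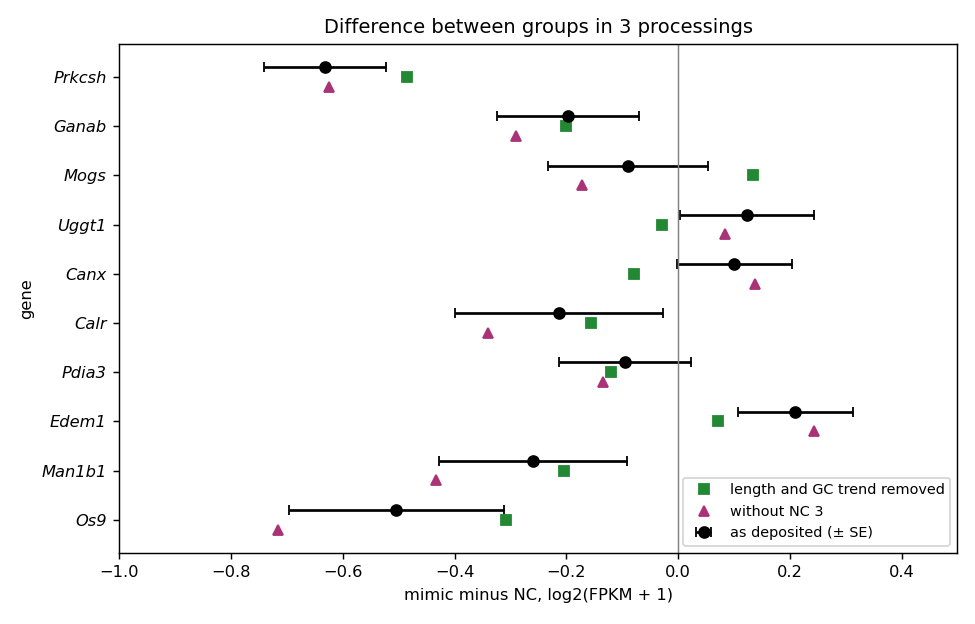
Difference between groups (horizontal axis, mimic minus control, log2(FPKM + 1)) of the 10 genes as deposited with its SE (black), with the length and GC trend removed (green) and without control 3 (purple). Prkcsh lies between −0.49 and −0.63 in all 3, while Mogs, Uggt1 and Canx change sign with the trend removed.

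The 5 genes whose pattern was most like that of Prkcsh, among 4134 with a mean of at least 10 FPKM, were Capg, Fyb, Hpcal1, Mcrip1 and Ubtd1. Their Pearson correlations with Prkcsh on log2(FPKM + 1) were 0.991, 0.991, 0.989, 0.985 and 0.981 over 6 libraries, which share the group contrast. Capg, an actin-capping protein, read 248.8, 254 and 256 FPKM in the controls and 180.2 or less in mimics 1 and 2, with 209 in mimic 3. Of the other genes of the cycle Os9 ranked highest, 430th with 0.741, and Ganab was 501st with 0.708. Man1b1 has a mean under 10 FPKM and was not ranked. Edem1 had a correlation of −0.94 and Canx of −0.78.

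Genes of the neighbouring steps, on lists drawn up from the known pathway, passed limma in neither direction (0 of each list). Without control 3, where 23.7% of all genes passed, 10 of 17 other ER chaperones did (3 higher, 7 lower), as did 4 of 12 oligosaccharyltransferase genes (all lower) and 4 of 15 degradation genes (2 each way). It was 3 of 19 for the lipid-linked sugar (2 higher, 1 lower), 3 of 11 for later trimming (1 higher, 2 lower) and 5 of 11 paralogues (2 higher, 3 lower). The paralogue list overlaps the others. Its 5 genes, Edem2, Edem3, Erlec1, Pdia4 and Pdia6, are already counted among the degradation genes or the chaperones. With the trend removed as well 1 chaperone and 1 degradation gene passed. Of 12 tested genes of oligosaccharyltransferase, which attaches the sugar, 9 had lower and 3 higher estimates (median −0.097). The lowest was the small subunit Ost4 at −0.59 (SE 0.22) and the highest Magt1 at 0.35 (SE 0.14). Every mimic lay below every control in 4 of the 12 and above in 1, against 7.49% and 12.6% of all genes tested. Among the 4 was Ddost, a subunit of the core complex, with mimics at 67.8 to 76.7 FPKM and controls at 85.5 to 98.3. Ddost was named after its values were seen. Its difference was −0.37 (SE 0.11), and −0.43 without control 3. With the trend removed it was −0.17, and −0.093 without control 3 as well. Of 19 genes that build the lipid-linked sugar, 8 were lower and 11 higher (median 0.12, and 0.021 without control 3), from Dpm3 at −0.34 (SE 0.33) to the mannosyltransferase Alg2 at 0.55 (SE 0.23; 0.995 FPKM in controls).

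Among 17 other ER chaperones and oxidoreductases 11 were lower and 6 higher (median −0.19, −0.15 with the trend removed and −0.31 without control 3). The lowest was the BiP cofactor complex member Sdf2l1 at −0.55 (SE 0.17) and the highest the J-protein Dnajb9 at 0.37 (SE 0.18). Every mimic lay below every control in 4 of them and above in 2, against 7.49% and 12.6% of all genes tested. Among 15 genes of glycoprotein degradation 7 were lower and 8 higher (median 0.055, turning to −0.063 without control 3 and to −0.011 with quantile normalisation). Of 11 genes of later trimming and cargo transport 4 were lower and 7 higher (median 0.14, but 0.038 with the trend removed and −0.011 without control 3), from the cargo lectin Lman2 at −0.22 (SE 0.14) to the Golgi mannosidase Man2a1 at 0.40 (SE 0.16). These counts are descriptions, with 43.7% lower over all genes tested.

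**Figure D5:**
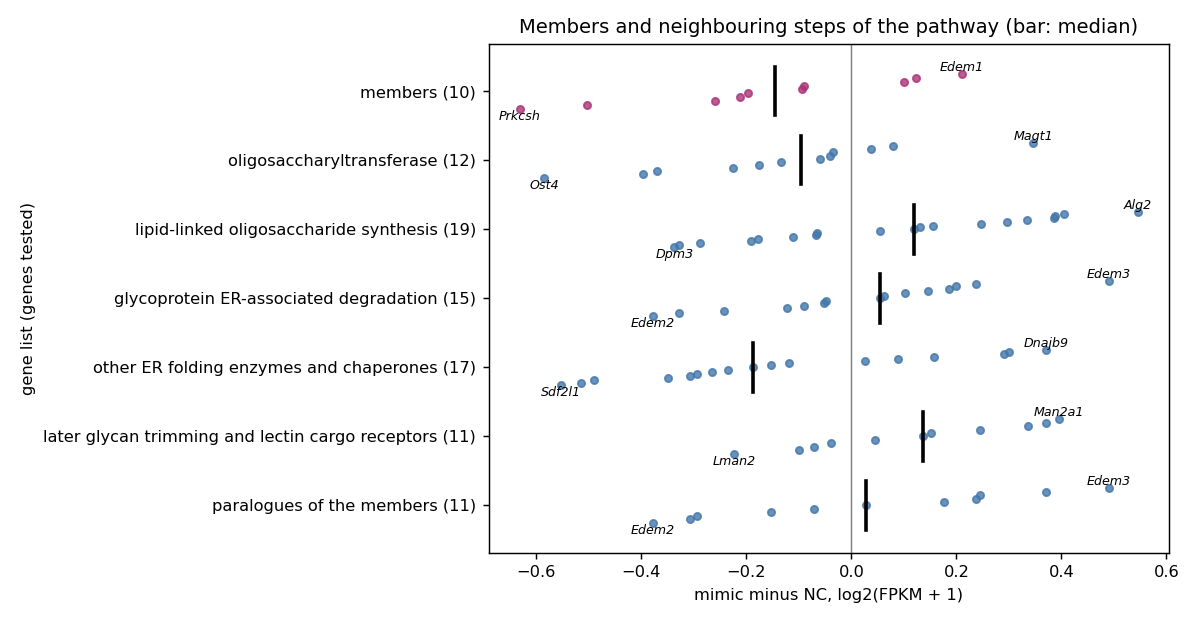
Difference between groups (horizontal axis, mimic minus control, log2(FPKM + 1)) of each tested gene (points) in the 10 genes of the cycle and in 6 lists of neighbouring genes (rows), with black bars for medians. The medians run from −0.19 in the other ER chaperones to 0.14 in later trimming (−0.31 and −0.011 without control 3), and the named genes are the ends of each list. Paralogues that are also on another list appear in both rows.

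The paralogues of the 10 genes, which share their folds and in part their work, had lower estimates in 5 and higher in 6 of those tested. In the EDEM family Edem2 had a lower and Edem3 a higher estimate. Edem2 read 14.4, 14.3 and 12.0 FPKM in the controls and 10.3, 9.0 and 11.3 in the mimics (−0.38, SE 0.13). Edem3 read 11.04, 10.6 and 13.2 FPKM and 16.98, 17.8 and 15.3 (0.49, SE 0.13). Every mimic lay below every control in Edem2 and above in Edem3, against 7.49% and 12.6% of all genes tested. In Edem2 control 3 lay nearer to the mimics than to the other controls. Both differences were smaller with the trend removed (−0.27 and 0.29).

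Of the 13 paralogues 11 were tested. All of those but Ganc and Calr3 are also on the lists above. Erlec1, the relative of Os9, had 0.24 (SE 0.20), and the Golgi mannosidases Man1a, Man1a2 and Man1c1 had 0.25 (SE 0.14), 0.37 (SE 0.14) and −0.07 (SE 0.22). The disulphide isomerases P4hb, Pdia4 and Pdia6 had −0.29 (SE 0.17), −0.15 (SE 0.18) and −0.31 (SE 0.17). The relative of Ganab, Ganc, had 0.03 (SE 0.14) at 1.51 FPKM in controls, and Calr3 had 0.18 (SE 0.24) at 1.06 FPKM. Uggt2 (0.0749 FPKM in controls) and calmegin, Clgn (0.0356), were under the limit of 1 FPKM for testing, so Uggt1 and Canx stood above that limit while these relatives did not.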

How the data were processed

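The authors deposited one FPKM value per gene and library (fragments per kilobase of exon, scaled to library depth). The tools fastp, HISAT2 and DESeq2 and the build mm10 are named in the submitters' processing notes, with no versions; for the annotation, counting tool and strand setting these notes name nothing. Symbols (16568 of 16665 identifiers), exon lengths and positions came from GENCODE M21, and 97 identifiers had none. Depth was recovered as the smallest value that turned low FPKM (up to 20 fragments) into whole fragments within 0.1; 98.6% to 99.0% of them did so.

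Genes with a mean of at least 1 FPKM were tested with limma 3.58.1 (R 4.3.3) after transformation to log2(FPKM + 1), with the prior variance following mean expression, two-sided, with Benjamini-Hochberg adjustment at 0.05. This scale understates changes of low genes. SE is that of limma's moderated fit. The fit was tested on simulated data. The genes and lists were chosen with earlier results of these data known; named are the 10 genes, the ends of each list, all tested paralogues and the 5 genes most like Prkcsh, and other list genes were chosen after their values were seen. Alternatives covered pseudocount, filter, scaling, weights, a replicate block, a length and GC trend (splines, removed per library), voom and each library left out. Deviations from the group means correlated at 0.29, 0.18 and 0.34 between same-numbered libraries, although control 2 correlated at 0.31 with mimic 1. Pairing by number is therefore possible, but the labels do not state it. All values reported come from the fit without the replicate block, and the blocked fit is an alternative. The block changes the SE in both directions, as in Ost4 (0.22 to 0.15) and Ganab (0.127 to 0.139).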

Additional observations from a re-analysis of the deposited data

How the results depend on the processing

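With the replicate block (pairing by number) limma called 0 genes, as without it, and it changed no other call. Leaving out 1 library each gave 0 to 2412 called genes, the highest without control 3; removal of the length and GC trend on top of that gave 389. Array weights gave control 3 a weight of 0.0908 and mimic 3 one of 0.339. They called 4808 genes (47.3%) and put the median of the 10 at −0.25. Libraries scaled to the same sum gave the 10 a median of −0.043, where that of all genes was 0.13. The Prkcsh to Ganab log2 ratio was −0.31 with the trend removed, with or without the block, and −0.15 without control 3 as well. Signs turned as follows, and the cause was not tested. Scaling to the same sum gave Mogs 0.0075, Pdia3 0.0099 and Man1c1 0.019. Quantile normalisation gave Calr 0.029, Pdia3 0.10 and Ganc −0.044. Trend removal, with or without the block, gave Mogs 0.13, Uggt1 −0.029, Canx −0.080, Ganc −0.12 and Man1c1 0.033. Without control 3 as well, Mogs was 0.21, Uggt1 −0.025, Canx −0.098, Ganc −0.079, Man1a −0.047 and P4hb 0.021. Array weights gave Calr3 −0.14 and Ganc −0.0026, and median-of-ratios factors gave Ganc −0.00028. With 1 library left out Ganc lay between −0.029 (control 1) and 0.073 (control 2), with −0.0067 without mimic 3, and Man1c1 to 0.080 (control 1), 0.015 (control 2) and 0.017 (mimic 3). Of the list medians, that of degradation turned to −0.044 with array weights, and that of oligosaccharyltransferase to 0.0074 with the same sum. That of the paralogues turned to −0.11 at a mean of at least 5 FPKM, −0.14 with array weights, −0.044 with quantile normalisation, −0.00028 with median-of-ratios factors and −0.047 with the trend removed and control 3 left out. Where a group was left with 2 libraries, the fit assumed that they vary like the others. Prkcsh, Ganab, Edem1, Man1b1 and Os9 kept their sign under every alternative run.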

Other observations

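The 4 genes with the highest control means on the lists of neighbouring genes were highest in library 3 of both groups. P4hb, protein disulphide isomerase, read 1464, 1421 and 1575 FPKM in controls 1 to 3 and 1089, 1068 and 1526 in mimics 1 to 3. Ero1l, the oxidase that recharges it, read 978, 976 and 1522 FPKM in the controls and 1092, 1156 and 1387 in the mimics. Hspa5, the chaperone BiP, read 635, 648 and 813 FPKM and 546, 549 and 871. Hsp90b1, the ER form of HSP90, read 420.1, 415 and 496 FPKM and 408, 427 and 522. The next gene by control mean, Pdia6, was lowest in library 3 of the controls, at 72.5 FPKM. These genes were chosen after their values were seen.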
